A study of Danio rerio with 24 samples.

Results

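The livers of unexposed adult zebrafish were taken up to profile which transcripts gave the brightest signals in normal liver, which of them differed from pool to pool, and which drifted while the fish were held. The 12 samples with the agent given as control were chosen out of 24 in all. They fall into 4 groups of 3 arrays, control fish held for 8, 24, 48 and 96 h, and the labels call the 3 arrays of a group biological replicates. The 12 other arrays carried liver RNA from fish exposed to mercury chloride (HgCl2) at 200 μg/L for the same times, and they serve here only for comparison. All fish were wild type and reared at 27 °C, per the methods they were 6 months to 1 year old, and each array carried RNA of 4 fish pooled. The sex of the fish in a pool is not given. On every array the liver RNA was labelled with Cy5 and a common reference with Cy3, and no dye swap was made. Per the methods, the reference held total RNA of male and of female wild-type fish in equal parts.

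The liver makes most proteins of the blood plasma, among them transferrin, the complement factors and the apolipoproteins that carry lipid, and it clears amino acids, drugs and steroids. In egg-laying females it also makes vitellogenin, the yolk precursor, which travels through the blood to the growing oocytes. Livers dissected from fish this small can carry along blood, pancreas tissue, which lies between the liver lobes and the gut in zebrafish, and pieces of neighbouring organs. In such bulk tissue, fewer cells of a type and less RNA per cell cannot be told apart.

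The glass arrays held 16512 spots, and 16340 remained as probes once 172 beta-actin control spots were left out. Of these, 5916 carry a single gene symbol and name 5355 genes. Median Cy5 signals ran from 253 to 902 by array, and 74.2 to 93.8% of the spots were above background in Cy5, meaning that at least 50% of their pixels exceeded the local background by 2 SD. In Cy3 the share was 35.3 to 90.5%. Since the Cy3 channel held the same RNA on all arrays, it was used to compare the arrays themselves. The control arrays were clustered on it, stopping at 2 clusters. This gave a 4-array set, with 48 h replicate 3 and all 3 arrays of 96 h, and an 8-array set with the rest. The HgCl2 arrays were not assigned to a set. In the 4-array set the median Cy3 signals were 1021 to 1207 over a Cy3 background of 523 to 606, and in the 8-array set they were 448 to 607 over 204 to 358. With every probe centred, pairs of arrays from different sets correlated at r between -0.644 and -0.408, and pairs within a set at 0.0782 to 0.832. All 8 h arrays thus lie in one set and all 96 h arrays in the other, and for that pair of times array set and holding time cannot be told apart, except through the 48 h arrays, which lie in both.

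Some spots carried signal on one set of arrays and none on the other. There were 158 probes above background in both channels on all arrays of the 8-array set and in neither channel on any of the 4-array set, against 4 probes with the reverse. The spot of hnrnpd, which encodes an RNA-binding protein, had Cy5 signals of 26 to 139 on the 4-array set and of 8032 to 29318 on the 8-array set, and its Cy3 signals were 31 to 129 and 8559 to 27898. For fetub, which encodes a fetuin of blood plasma, Cy5 signals were 14 to 29 on the 4-array set and 6568 to 19267 on the 8-array set, with 3 to 35 and 6863 to 14655 in Cy3. Reference RNA and liver RNA went dark together on these spots. Of the 158 probes, 44 have a gene symbol.

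Transcripts of blood plasma proteins, of fatty acid carriers and of the translation machinery gave the brightest Cy5 signals over background in control liver. Genes with a single symbol were ranked within each array and by the median rank over the 12 arrays, as a description with no test. Signal depends on the oligonucleotide as well as on the mRNA, so the ranks order spots rather than mRNA amounts. The first places went to apoa1b, which encodes the main protein of high-density lipoprotein, to tfa, the iron carrier transferrin, and to si:ch73-106k19.5. All 3 were saturated on all 12 arrays, with signals of 65389 to 65452 for apoa1b, 65380 to 65446 for tfa and 65289 to 65451 for si:ch73-106k19.5, so they have no order among themselves. The reference channel reached the same ceiling, with 33311 to 65340 for apoa1b, 64870 to 65312 for tfa and 64788 to 65336 for si:ch73-106k19.5, so the log2 ratios of these genes cannot show a difference between pools either.

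The vitellogenin gene vtg3 came next and was saturated on 11 of the 12 arrays. Its Cy5 signal was 15159 on 8 h replicate 2 and 65376 to 65451 on the others, so a female liver product was at the top of the scale in nearly every pool. After it came fabp10a, the liver-type fatty acid binding protein, saturated on 8 arrays and lowest on 24 h replicate 2 at 28106. Below it stood tpt1, a small growth-related protein of all cells, with 21381 to 65429 and saturation on 3 arrays. Over the genes ranked up to 20, 10 were saturated on at least 1 array.

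Ribosomal protein genes filled 8 of the first 20 places and 15 of the first 60. The brightest were rpl23 with 32783 to 62226, rpl36a with 29894 to 65414, rplp0 with 33294 to 65430 and rps20 with 29582 to 62191, and rpl34, rpl18, rpl6 and rpl9 followed. Also among the 20 were eef1g, a subunit of translation elongation factor 1 (20957 to 62974), nme2b.1, a nucleoside diphosphate kinase (18683 to 54381), and wu:fj16a03 (30314 to 63872). Secreted binding proteins were npc2.1, a cholesterol carrier, with 19944 to 65425, and rbp4, the plasma carrier of retinol, with 14949 to 65466. The transcription factor gene pax9 had 13328 to 63358. For vtg3, npc2.1, pax9 and rbp4 the lowest signal of all 12 was that of 8 h replicate 2. These signals are not scaled between arrays, and that array also had the lowest median Cy5 signal of the 12 (253). For rbp4, 96 h replicate 1 was nearly as low, at 15248. Just outside the 20 were rpl38 with a median rank of 21, against 20.5 for rpl9 just inside, and gapdh, a glycolytic enzyme, with 24.

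**Figure D1:**
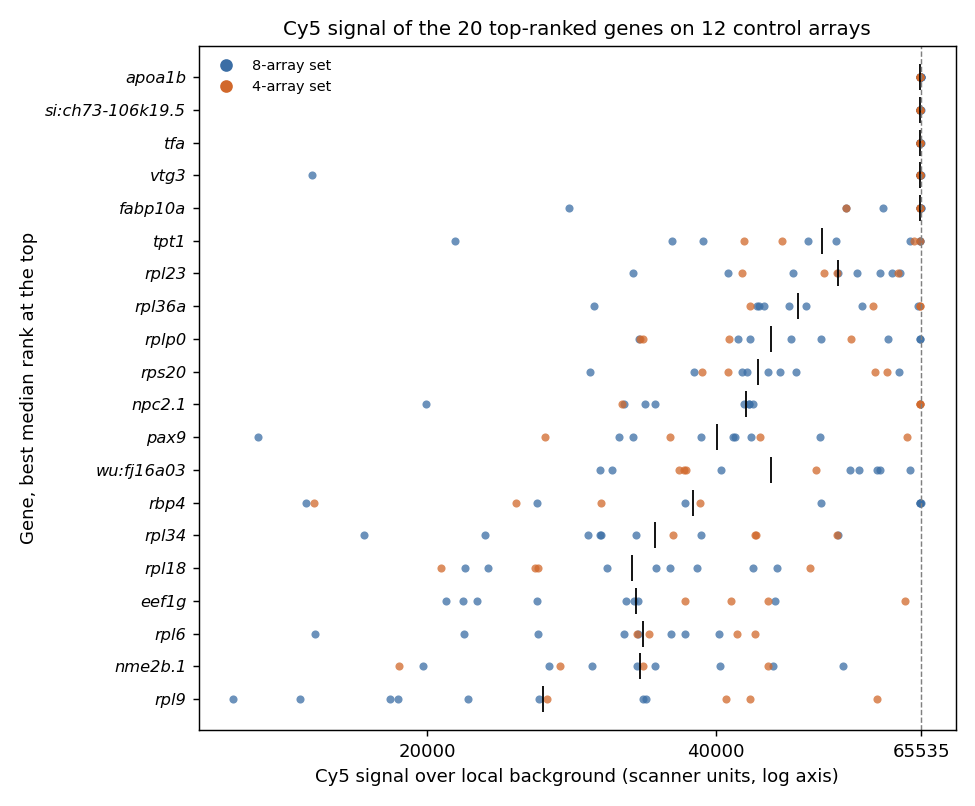
Cy5 signal over local background in scanner units (log axis, dashed line at the scanner's upper limit) of the 20 genes with the best median rank, 1 point for each of the 12 control arrays, coloured by array set, with a black bar at the median. The first 3 genes sit at the limit on all 12 arrays, while vtg3 falls to 15159 on 8 h replicate 2.

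Most bright spots have no gene name. Of the brightest 20 probes among all 16340, 9 have a single symbol, and of the brightest 100, 33 have. The brightest 20 held 4.52 to 12.5% of the summed Cy5 signal of an array (median 10.4%) and the brightest 100 held 15.4 to 37.6% (median 30.3%), which saturation makes lower limits.

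On the HgCl2 arrays, ranked in the same way, 11 of these 20 genes were again among the first 20. Among those that were not, vtg3 had a median rank of 3.75 in control fish and 41 in HgCl2 fish, pax9 of 13.5 and 60, npc2.1 of 13.5 and 28.5, and rbp4 of 15 and 32.5. The genes that took their places in HgCl2 fish included c3a.1, a complement factor (55 in control fish and 5.75 in HgCl2 fish), cp, the copper carrier ceruloplasmin (53 and 18), and hpxb, a heme-binding plasma protein (205.75 and 18.5). These differences in rank were not tested.

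Variation between pools was measured as the SD of the log2 ratio within times, over the 12 control arrays, for the 2917 named probes (2763 genes) whose foreground was on average at least 2 times the background in each channel. The median SD was 0.22 and the 90th percentile 0.42. In the normalized channels taken singly, the median SD was 0.33 in Cy5 and 0.32 in Cy3, where the RNA did not differ. The genes with the largest SDs were chosen by this readout, so they are described with no test.

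Several of the genes with the largest SDs are known from oocytes or dividing cells, although the lists of ovary markers (median SD 0.43) and of cell cycle genes (0.27) did not vary most as a whole. The largest SD was 1.77, for aspm, which encodes a spindle protein of dividing cells. The arrays of 8 h had log2 ratios of 1.4, -2.11 and -3.01, those of 24 h had -3.57, -1.87 and -2.31, those of 48 h had 1.94, -2.79 and -1.73, and those of 96 h had 0.77, 1.26 and 0.61. The values fell apart into a high and a low state, with 8 h replicate 1, 48 h replicate 1 and the 3 arrays of 96 h between 0.61 and 1.94 and the rest between -3.57 and -1.73. The egg coat gene zp3 (SD 1.17) had 0.30, 0.73, 0.09, 0.14 and -0.09 on those 5 arrays and -3.27 to -0.82 on the rest, and zp3a.1, of the same family (SD 1.33), had -1.23 to -0.32 on the 5 and -4.18 to -2.96 on the rest. The probe assigned to nr3c1, the glucocorticoid receptor (SD 1.56), had 0.93, 1.2, 0.29, 0.75 and 0.35 on the same 5 arrays and -3.40 to -1.69 elsewhere.

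This set of 5 highest arrays recurred. Of the 40 genes with the largest SDs, 12 (30%), zp3 itself included, had these 5 arrays highest, against 46 of all 2763 genes past the filter (1.66%), again with zp3 among them. Besides those above they were tbxta, a T-box factor of the embryo (SD 0.98), ccnb1, cyclin B1 (0.92), rbm8a, a part of the exon junction complex (0.91), org, a gene known for oogenesis (0.90), vwa1 (0.83), retsatl (0.82), stmn1a, the microtubule regulator stathmin (0.80), and txnrd3, a thioredoxin reductase (0.80). With smaller SDs the oocyte genes zpcx (0.64), zar1 (0.59), zar1l (0.57) and cldnd (0.56) and the epithelial adhesion gene epcam (0.65) had the same 5. Other genes did too, among them fscn1a (0.74), tuba8l4 (0.35), actb1 (0.30) and cfl1 (0.23). The 5 arrays were read off zp3 and the 40 genes were ranked by the same values, so nothing is read from the 30%. In the list of ovary markers, 11 genes are on the array, and 9 of them passed the filter on dim probes. Its median SD was 0.43, its array median was lowest on 8 h replicate 2 (-0.79) and highest on 8 h replicate 1 (0.21), and no member was called between 96 and 8 h. The list is not specific to ovary throughout, since ybx1, an RNA-binding protein found in most tissues, ranked 46.5 by Cy5 signal in these livers. Whether ovary tissue was carried along into some pools was not tested.

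On the HgCl2 arrays aspm, zp3, zp3a.1, nr3c1 and tbxta varied again, with SDs of 1.56, 1.54, 1.54, 1.53 and 1.08, against a median of 0.26 and a 90th percentile of 0.49 there. In all, 9 of the 15 genes with the largest SDs in control fish were above that percentile in HgCl2 fish. The other 6 were not, among them eef1a1l1 (SD 1.08 in control fish and 0.22 in HgCl2 fish), mfsd13a (1.00 and 0.29), pisd (1.11 and 0.33) and kifap3b (0.94 and 0.34). The part of array set in these contrasts was not tested.

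Several of the largest SDs rested on single arrays. For tmed4, a cargo receptor of the early secretory pathway (SD 1.32), the ratio was -4.90 on 48 h replicate 3 and -1.12 to 0.37 on the others, and its reference signal reached 13454 on that array. The membrane transporter gene mfsd13a (1.00) was at -3.41 on 48 h replicate 2 and at -0.64 to 0.18 elsewhere, with a reference signal that reached 49143. For eef1a1l1, translation elongation factor 1 alpha (1.08), 96 h replicate 1 was at -3.40 and the rest at -0.28 to 0.71. Its spot was dimmer in both channels on the 96 h arrays. Cy5 signals were 277 to 2434 there and 15937 to 53164 at 8 h, and reference signals were 698 to 3147 and 14843 to 45819. A single array was also far below the rest for si:ch211-218c6.8 (1.01), with -3.19 on 8 h replicate 1. Over the 40 genes with the largest SDs, the lowest array was farther from the next than all the rest spanned in 7 genes, and the highest was so in 3. Those 3 were acat2, a thiolase (2.30), acaca, the first enzyme of fatty acid synthesis (1.6), and mgst3b, a glutathione transferase (2.72), all highest on 8 h replicate 1. The kinesin-associated gene kifap3b followed the array sets, with -3.06 to -1.92 on the 4-array set and -0.44 to 0.91 on the 8-array set, and Cy3 signals of 3144 to 3935 and 107 to 428. So did zgc:113054 (0.95), with -2.10 to -1.18 on the 4-array set and -1.11 to 1.2 on the 8-array set, and Cy3 signals of 2079 to 4225 and 135 to 789.

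A different pattern held in the remaining genes of the 15. For wu:fa56d06 (SD 1.3), 8 h replicate 3 and 48 h replicate 2 were highest, at 2.67 and 2.80, and the others lay between -0.71 and 1.13. The same pair was highest for fabp2 (0.79), the intestinal fatty acid binding protein, at 2.03 and 1.2. Close to the second of these were 24 h replicate 1 (1.11) and 96 h replicate 1 (1.03). The pair was highest also for vil1 (SD 0.44), villin of the enterocyte brush border, at 1.12 and 0.78, with ratios of 0.44 or less elsewhere. Genes of other kinds shared this pair, among them chkb (SD 0.80), e2f4 (0.67), mhc1uba (0.64), rbp4 (0.58) and prss1 (0.41). The share of all genes with this pair is not given, so no tissue is read from it. Of the 6 intestine markers on the array none was called between 96 and 8 h, and their array median was highest on 48 h replicate 2 (0.86). Mitochondrial pisd, which makes phosphatidylethanolamine (1.11), was at 2.61, 1.3 and 1.12 on 8 h replicate 3, 24 h replicate 3 and 48 h replicate 2, and at 0.73 or below elsewhere. The threonine-degrading enzyme gene tdh (1.22) was highest on 8 h replicates 1 and 2, at -0.23 and -0.44, and lowest on 24 h replicate 3, at -3.56. For arg2, a mitochondrial arginase (1.00), ratios ran from -2.86 on 8 h replicate 3 to 0.03 on 8 h replicate 1. Just outside the 15 stood zgc:171776 with an SD of 0.93, against 0.94 for kifap3b just inside.

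Genes of cholesterol synthesis had their highest values in the same pools. The list of lipid synthesis holds 6 of its enzymes that are on the array, hmgcs1, idi1, fdps, fdft1, cyp51 and dhcr7, in the order of their steps, and in all 6 the highest pair of arrays was 8 h replicate 3 and 24 h replicate 3. The same pair was highest in 168 of the 5916 named probes (2.84%). Both the 6 genes and the pair were picked after their values were seen, so nothing is read from this count. For fdps, which makes farnesyl pyrophosphate, these arrays had 1.17 and 1.01 and the others -1.41 to -0.03. For cyp51, the sterol demethylase, they had 1.31 and 1.4, and 24 h replicate 2 followed at 0.84. The entry enzyme gene hmgcs1 had 0.97 and 0.89 against 0.27 or less elsewhere. In idi1 the second array was only just ahead, with 0.97 and 0.23 against 0.15 or less elsewhere. For fdft1 the values were 0.60 and 0.39 against 0.16 or less, and for dhcr7 0.99 and 0.49 against 0.14 or less. Both pools stood above the other replicates of their own time. The thiolase gene acat2, whose enzyme acts ahead of hmgcs1, is not on the list and did not share the pattern, with 0.14 and 0.35 on these arrays and 2.30 on 8 h replicate 1. On the HgCl2 arrays the same 6 genes had SDs of 0.49 to 1.01.

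Among the 12 pools, 8 h replicate 2 was most often the highest for plasma protein and complement genes. It was highest of the 12 arrays for 7 of the 12 plasma protein genes and for 3 of 5 complement genes, whereas over all named probes it was highest in 12% and lowest in 12.1%. The complement factor genes c3a.1, c3a.2 and c3a.3 had 1.69, 2.20 and 1.77 there, and at most 0.50, 1.17 and 0.17 on any other array. The ceruloplasmin gene cp had 1.01 there, against -0.85 to 0.02 elsewhere. For kng1, kininogen, the value was 1.46, against 0.65 or less elsewhere, and for f7, coagulation factor VII, it was 1.09, against 0.51 or less.

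Transcripts of vitellogenin and of pancreatic enzymes were low in that pool. It was lowest for 4 of 5 vitellogenin and estrogen genes and highest for the other, esr2a, an estrogen receptor (0.69). Among the 4 it had -1.95 for vtg3, against -0.62 or more elsewhere, -0.66 for nots, an aspartic protease of female liver, against 0.00 to 2.13 elsewhere, and -0.18 for esr1, the estrogen receptor, against 0.20 or more. The vtg3 ratio is compressed on the other 11 arrays by saturation. It was lowest also for 4 of 5 fatty acid and retinoid binding protein genes on the list and for 4 of 6 markers of exocrine pancreas, with cel.2, a lipase, at -1.89, cpa5 and cpb1, both carboxypeptidases, at -1.16 and -1.03, and prss1, trypsin, at -0.49. In 5 of 11 genes of protein folding in the endoplasmic reticulum it was lowest, while 8 h replicate 3 was highest in 5. The sex of the pools is not given, and its part in these values was not tested.

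Metabolic enzymes separated the other pools of 8 h. Replicate 1 was highest for 8 of 15 genes of amino acid breakdown, against 10.9% of all named probes, and for 7 of 26 genes of drug and steroid metabolism. Replicate 3 was lowest for 8 of the same 15, against 9.84%, and highest for 5 of 13 genes of lipid synthesis. Cytosolic aspartate aminotransferase, got1, had 1.77 in replicate 1, 0.70 in replicate 2 and -0.93 in replicate 3. The arrays of 96 h had -0.48, -0.92 and -0.55. The SD of got1 within times was 1.08 in the reference channel and 1.00 in Cy5, against medians of 0.32 and 0.33. Its reference signal thus varied as much as its liver signal. The urea cycle gene ass1, argininosuccinate synthase, had -0.15, -0.42 and -0.44 in the same 3 replicates, a far narrower range. For gstp1.2, a glutathione transferase, 8 h replicate 1 was at 2.12 and replicate 3 at -0.31.

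**Figure D2:**
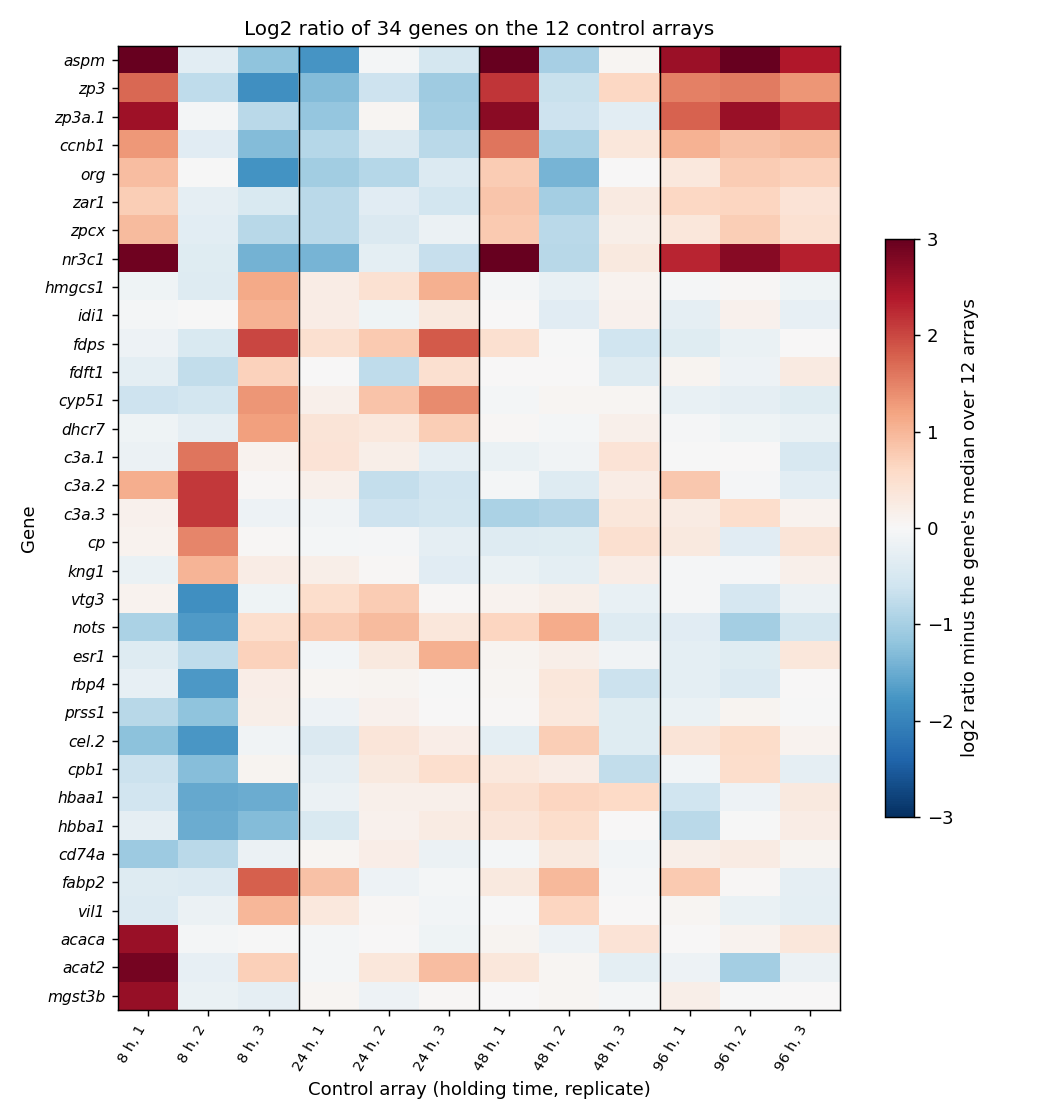
Log2 ratio of 34 genes on the 12 control arrays, each gene less its own median, by holding time and replicate, with red above the median and blue below and the scale ending at 3 on both sides. Oocyte and cell division genes (top) are high on 8 h replicate 1, 48 h replicate 1 and the 96 h arrays. Sterol genes are high on 8 h replicate 3 and 24 h replicate 3, and the complement genes c3a.1, c3a.2 and c3a.3 on 8 h replicate 2.

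Markers of liver, blood and pancreas gave signal in most cases. All 12 liver plasma protein genes on the array passed the filter on dim probes, though fetub was above background on only 8 arrays, and 6 were in the first 60 ranks. Of the red blood cell markers 8 of 9 passed, and of the markers of exocrine pancreas 5 of 6. Of 9 red blood cell markers, hbba1 and hbaa1, beta and alpha globin, had Cy5 ranks of 133 and 175.5, and 48 h replicate 2 was highest for 4 of the 9, against 9.77% of all named probes. Of the 11 leukocyte markers, cd74a, the invariant chain of antigen-presenting cells, was the brightest at 151.5. The markers of exocrine pancreas prss1, cel.2 and cpa5 had ranks of 209.5, 233 and 243. None of the members of any list was called in the comparison that follows.

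Holding the fish for 96 h instead of 8 h left few differences that passed the test. In the limma model of 8 group means, 35 of 16340 probes were called at an adjusted p below 0.05 (0.214%), 9 of them higher at 96 h (0.0551%) and 26 lower (0.159%). Leaving out 1 array gave 0 calls (without 96 h replicate 2) to 71 (without 48 h replicate 3). Without adjustment 1627 probes had p below 0.05 (9.96%). Of the 35 called, 10 have a single gene symbol, 5 higher and 5 lower, and 25 carry several symbols or none. In all 35 the arrays of the 2 times did not overlap, which over all probes held for 9.4% in the higher direction and 9.57% in the lower.

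The calls of the 10 named genes depended on single arrays. Leaving out 1 of the 6 arrays of both times in turn took the adjusted p above 0.05 in 3 of 6 cases for cdh1 and uckl1b, in 4 for tmem129, in 5 for btk and pof1b, and in all 6 for abca5, mef2ca, oprk1, ywhaba and creb3l3a, while every difference kept its direction.

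The split by direction was the same with Aquantile scaling (9 higher and 26 lower) and differed with other choices. With median centring in place of loess 24 probes were higher and 124 lower (16.2% higher), and with plain background subtraction 8 were higher and 11 lower (42.1%). In the value table of the authors 8 were higher and 2 lower (80%), against 25.7% higher in the loess values.

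Among genes higher at 96 h, abca5, which encodes an ABC transporter, had log2 ratios of -0.58, -0.57 and -0.78 at 96 h and -2.07, -1.93 and -2.53 at 8 h. Arrays of the 2 times did not overlap, and 48 h replicate 3 (-0.83) lay with those of 96 h. The difference was 1.54 ± 0.27 (SE, n = 3 each, limma, adjusted p = 0.0253). Its Cy5 spot was above background on all arrays of 96 h and on none of 8 h, so the size of that difference cannot be read. In the liver channel alone the signal at 96 h was at least 1.52-fold higher than at 8 h. This bound sets the mean of normalized signals at 96 h over the lowest signal above background on the 8 h arrays. Arrays of the 2 times lie in different array sets, and the part of array set in this bound was not tested.

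The cadherin gene cdh1, which encodes the E-cadherin of epithelial cell contacts, had 1.4, 1.38 and 1.02 at 96 h and 0.06, -0.36 and 0.12 at 8 h. These did not overlap, the 24 h arrays had 0.52, 1.04 and 0.53, and the ratio of 48 h replicate 3 (-0.17) lay with those of 8 h. The difference was 1.33 ± 0.21 (adjusted p from limma = 0.0179). Its Cy5 signals were 37588 to 52947 at 96 h and 865 to 1420 at 8 h, and its reference signals moved the same way, with 12753 to 15024 and 1186 to 1744. On 48 h replicate 3 the Cy5 signal was 60781, nearer those of 96 h, and the reference signal was 53405, above those of 96 h. In the authors' value table the cdh1 difference was -0.07 (adjusted p = 0.987).

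The gene uckl1b, a uridine-cytidine kinase, had 0.54, 1.03 and 1.56 at 96 h and -0.03, -0.36 and -0.16 at 8 h, a difference of 1.23 ± 0.20 (adjusted p from limma = 0.0179). Its lowest value at 96 h lay well clear of the 24 h arrays (-0.15, -0.08 and -0.13) and near 48 h replicate 3 (0.57). Cy5 signals were 7181 to 15492 at 96 h and 246 to 433 at 8 h, with reference signals of 4001 to 4887 and 286 to 566.

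For mef2ca, a transcription factor of muscle, the ratios were -0.09, 0.08 and 0.06 at 96 h and -1.06, -1.57 and -1.41 at 8 h. They did not overlap, and the arrays of 48 h spanned both, with -0.15, -1.31 and 0.23. The difference was 1.36 ± 0.28 (adjusted p from limma = 0.0474). The kappa opioid receptor gene oprk1 had 0.09, 0.37 and 0.20 at 96 h and -0.79, -0.43 and -0.77 at 8 h. The value of 24 h replicate 3 (0.34) was inside the range of 96 h. It differed by 0.88 ± 0.18 (adjusted p from limma = 0.0488).

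The largest fall among the called named genes was that of ywhaba, a 14-3-3 adapter protein, with -1.46, -1.89 and -1.54 at 96 h and 0.31, -0.29 and 0.09 at 8 h. Arrays of 24 h and replicates 1 and 2 of 48 h stayed between -0.42 and 0.10, and 48 h replicate 3 was at -1.90. The difference was -1.67 ± 0.30 (adjusted p from limma = 0.0262). Unscaled Cy5 signals were 554 to 794 at 96 h and 270 to 673 at 8 h, and reference signals were 1451 to 2195 and 320 to 588. After normalization the Cy5 channel differed by -0.94 (adjusted p from limma = 0.0247) and the reference channel by 0.73 (adjusted p = 0.0571). The ratio thus moved with both channels, and the part of the reference in it was not tested. For tmem129, a ubiquitin ligase of the endoplasmic reticulum, the ratios were -1.17, -1.01 and -1.04 at 96 h and 0.08, 0.92 and 0.55 at 8 h, a difference of -1.59 ± 0.26 (adjusted p from limma = 0.0179). Here the Cy5 signals were higher at 96 h (1308 to 2495) than at 8 h (170 to 253), and those of the reference more so, with 2384 to 4611 and 94 to 237. The reference spot of tmem129 was above background on only 1 array of 8 h, so the size of its difference is uncertain.

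The kinase gene btk, known from B lymphocytes, had -0.02, -0.69 and -0.42 at 96 h and 1.15, 1.03 and 0.54 at 8 h, and was called with a fitted difference of -1.28 ± 0.24 (adjusted p from limma = 0.0315). Its spot was not above background on any array of 96 h in either channel, so the ratio at 96 h sets background-level signals against each other and its size cannot be read. Its Cy5 signals were 1 to 13 at 96 h and 670 to 1111 at 8 h, and its reference signals were 9 to 41 and 515 to 554. In the liver channel alone the signal at 96 h was at least 13.5-fold lower than at 8 h, and the reference channel, with the same RNA at both times, differed by -2.97 on the log2 scale (adjusted p from limma = 0.000271). The epithelial gene pof1b had -1.07, -1.26 and -1.06 at 96 h and 0.22, 0.50 and -0.30 at 8 h. The difference was -1.27 ± 0.26 (adjusted p from limma = 0.0488). Its Cy5 spot was above background on 2 arrays of each time. Cy5 signals were 192 to 306 at 96 h and 19 to 132 at 8 h, and reference signals were 367 to 524 and 34 to 136. After normalization the Cy5 channel differed by -0.09 (adjusted p from limma = 0.85) and the reference channel by 1.18 (adjusted p = 0.0219). No fall in liver RNA is therefore read from the pof1b ratio.

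The liver gene creb3l3a was the called gene whose reference signal differed least. It encodes a membrane-bound transcription factor that in mammals drives acute-phase and lipid genes in hepatocytes. Its ratios were 0.00, 0.39 and 0.09 at 96 h and 1.22, 0.75 and 1.09 at 8 h, which did not overlap. The 24 h arrays lay between (0.66, 0.50 and 0.44), and all 48 h arrays, of both array sets, were at the level of 96 h (0.08, 0.37 and 0.12). The difference was -0.86 ± 0.18 (adjusted p from limma = 0.0488), and the reference channel differed by -0.13 (adjusted p = 0.803). With array set as a block the difference was -0.76 (adjusted p from limma = 0.832).

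**Figure D3:**
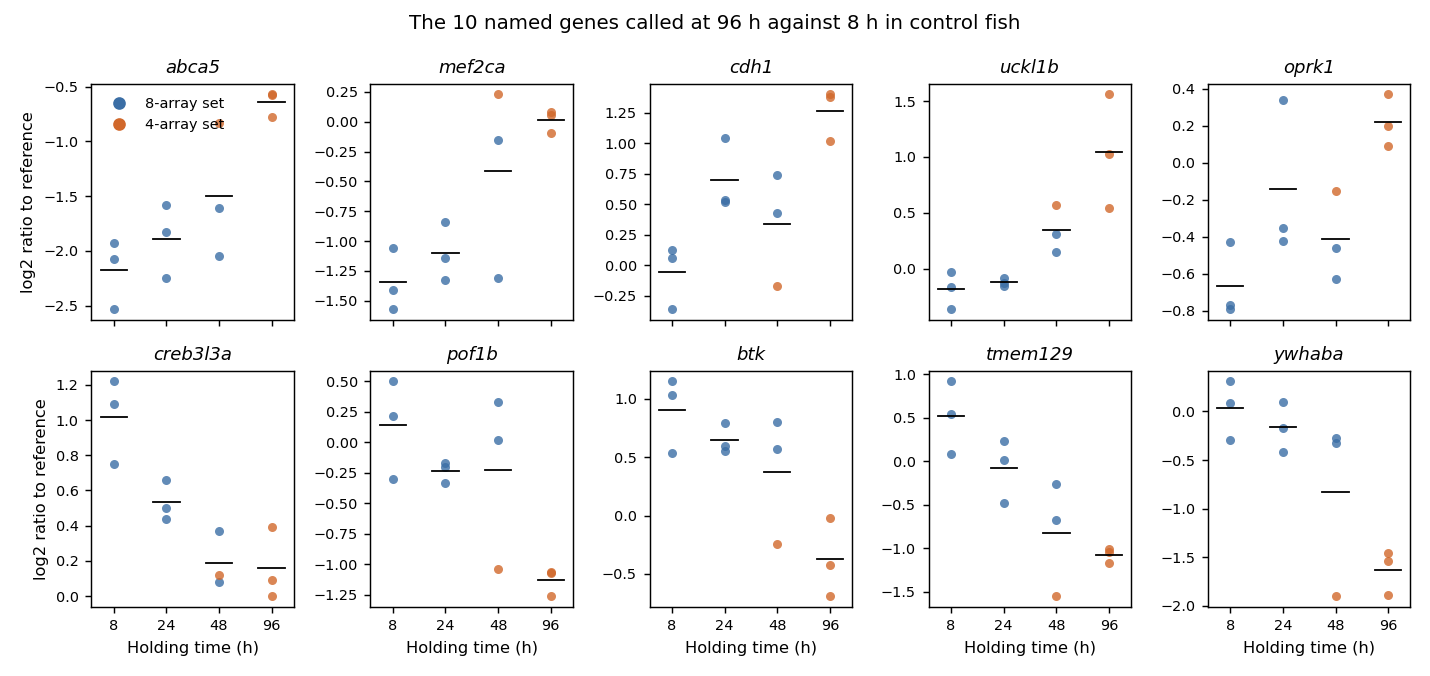
Log2 ratio to the reference of the 10 named genes called at 96 h against 8 h, 1 point for each control array by holding time (h), coloured by array set, with a bar at each mean. In abca5, ywhaba, pof1b and btk the single 48 h array of the 4-array set lies with the 96 h arrays, while for creb3l3a all 3 arrays of 48 h do.

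The reference channel, which held the same RNA at both times, differed far more often than the ratio. Tested in the same way, 3207 probes (19.6%) were called there between the arrays of 96 h and 8 h, 9.9% higher and 9.73% lower, and 3761 (23%) in the Cy5 channel. Of the 35 probes called in the ratio, 27 were called in the reference channel too. From the 4-array set, 48 h replicate 3 lay nearer the mean of 96 h than that of 8 h in 30 of the 35. For the mean of 48 h replicates 1 and 2 this held in 8, and for the mean of 24 h in 5. A single array is set beside means here, and the counts were not taken over all probes, so nothing is read from them. With array set as a block on the 12 control arrays all 35 had the same sign, and none was called. Of them, 11 had an unadjusted p below 0.05, against 5.83% of all probes, and that model called 3 probes in all (0.0184%). The 35 were chosen by the same difference on the same arrays, so nothing is read from their signs or from the 11. The set term rests on 48 h replicate 3 against 48 h replicates 1 and 2, the only time with both sets. The blocked differences of the named genes were smaller except for cdh1, at 2.09. They were -0.06 for ywhaba and for pof1b, -0.36 for btk, -0.50 for tmem129, -0.76 for creb3l3a, 0.41 for mef2ca, 0.49 for oprk1, 0.54 for abca5 and 0.89 for uckl1b (adjusted p from limma 0.201 to 0.986). With the spread taken from the 12 control arrays alone, 2 probes were called and none of the 35 was among them. Of the 5983 probes above background in both channels on all 6 arrays, 14 were among the 35.

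**Figure D4:**
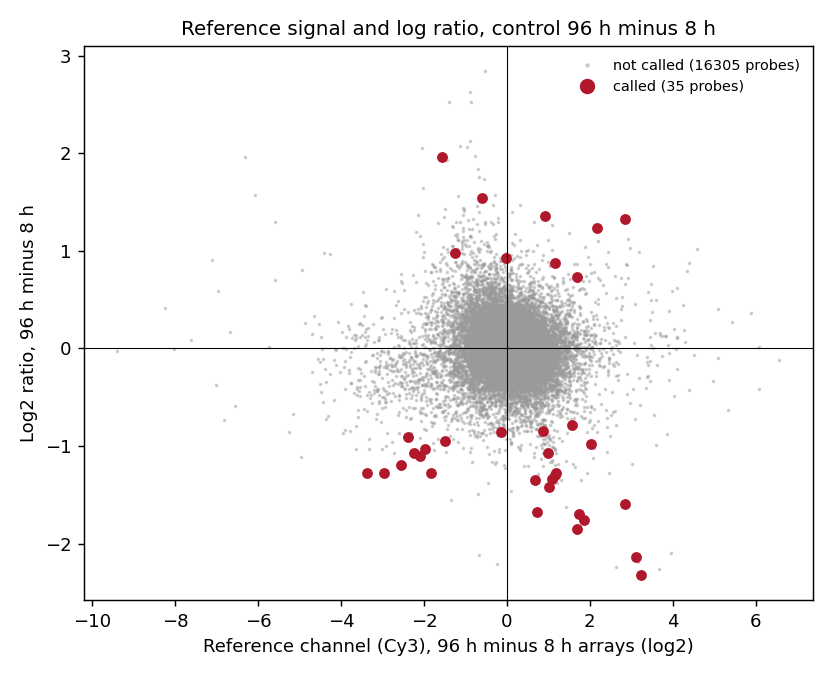
Difference in log2 ratio (96 h minus 8 h) against difference in the normalized Cy3 reference channel (log2) for 16340 probes, with the 35 called in red. Most of the called probes lie away from 0 on the axis of the reference channel, where 27 of them were called too.

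**Figure D5:**
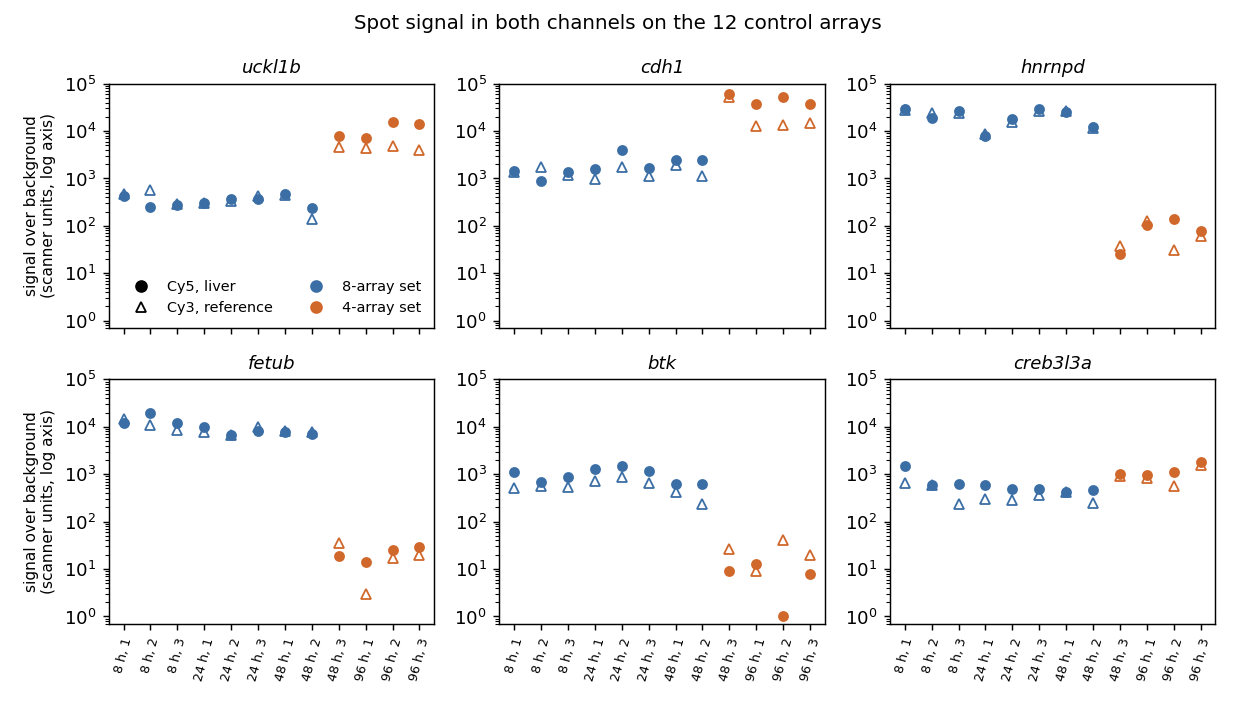
Signal over background (scanner units, log axis) of 6 genes on the 12 control arrays, with filled circles for liver RNA (Cy5) and open triangles for the reference (Cy3), coloured by array set. Both channels move together with the set in uckl1b, cdh1, hnrnpd, fetub and btk, and creb3l3a is measured in both sets.

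Fish exposed to HgCl2 were compared over the same times in the same model, on 6 arrays of their own. There 510 of 16340 probes were called (3.12%), 1.49% higher at 96 h and 1.63% lower. Of the 35 probes called in control fish, 23 had the same sign in HgCl2 fish, 1 of these was called there too, and for 10 the difference between control and HgCl2 fish was itself called (0.991% of all probes). The 35 were chosen by their difference in control fish, which enters that test too, so nothing is read from this count. The 5 named genes that were higher at 96 h in control fish differed by -0.13 to 0.17 in HgCl2 fish. Among those that were lower, creb3l3a differed by -0.86 ± 0.18 in control fish and by -0.64 ± 0.18 in HgCl2 fish (adjusted p from limma = 0.0529), a gap of -0.22 ± 0.25 that was not called.

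Set against 24 h, the 96 h arrays gave 19 called probes (0.116%), 4 higher (0.0245%) and 15 lower (0.0918%), and 1973 with an unadjusted p below 0.05 (12.1%). Both comparisons use the same 96 h arrays, and 7 probes were called in both. All 24 h arrays lie in the 8-array set and all 96 h arrays in the 4-array set. For this pair of times too, array set and holding time cannot be told apart, except through the 48 h arrays. Named genes were uckl1b, higher by 1.16 ± 0.20 (adjusted p from limma = 0.0247), and 3 that were lower. The hydrolase-family gene isoc1 had -0.98, -0.87 and -0.90 at 96 h and 0.10, -0.06 and -0.02 at 24 h, a difference of -0.92 ± 0.16 (adjusted p from limma = 0.0216). Between 96 and 8 h its reference channel differed by 1.54 on the log2 scale, and the part of the reference in the isoc1 ratio was not tested. The nuclear envelope gene syne3 had -0.49, -0.35 and -0.05 at 96 h and 0.45, 0.64 and 0.77 at 24 h, and all 3 arrays of 48 h lay with those of 96 h (-0.43, -0.24 and -0.30). Its difference was -0.92 ± 0.18 (adjusted p from limma = 0.0404). The lysosomal gene scarb2a was called as well, with a fitted difference of -0.88 ± 0.16 (adjusted p from limma = 0.0386), but its spot was not above background in either channel on any array of 96 h, so the size of that difference cannot be read. In the liver channel alone its signal at 96 h was at least 9.6-fold lower than at 24 h. In the reference channel its signal differed by -3.08 on the log2 scale between 96 and 8 h. The reference RNA went dark on this spot too, so no change in liver RNA is read from the bound. An F test over the 4 times called 8 probes (0.049%), with cdh1, uckl1b and tmem129 as the named genes, and 1552 had an unadjusted p below 0.05 (9.5%).

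Gene lists were described by their members, beside all 16340 probes, whose median difference between 96 and 8 h was 0.00 with 50.2% positive. None of the 295 list genes was called in this comparison. All 6 markers of exocrine pancreas had positive differences, with a median of 0.67, and 3 of the 6 did not overlap, all higher, against 9.4% of all probes. For sycn.2, a protein of zymogen granules, the ratios were 0.62, 0.54 and 0.48 at 96 h and -0.83, -0.77 and -0.21 at 8 h (1.14 ± 0.29, adjusted p from limma = 0.13). The values of 24 h (0.51, 0.84 and 0.52) lay with those of 96 h, so the 8 h arrays were the ones apart.

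Blood and leukocyte markers were mixed. Alpha globin, hbaa1, had 1.85, 2.30 and 2.75 at 96 h and 1.87, 0.93 and 0.97 at 8 h (1.04 ± 0.37, adjusted p from limma = 0.295), and beta globin, hbba1, differed by 0.82 ± 0.35 (adjusted p = 0.415). The 9 red blood cell markers had a median of 0.07, and those other than hbaa1, hbba1 and the embryonic globin gene hbae3 (0.50) lay between -0.18 and 0.28. For cd74a the ratios were 0.71, 0.79 and 0.63 at 96 h and -0.55, -0.28 and 0.38 at 8 h (0.86 ± 0.22, adjusted p from limma = 0.13), while the 11 leukocyte markers had a median of 0.05.

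Immediate-early genes, which answer to handling and to fresh stimuli, were positive in 8 of 9, with a median of 0.41, and in 6 of 9 the arrays did not overlap, all higher at 96 h, against 9.4% of all probes. The largest difference was that of myca, a Myc factor, at 0.54 ± 0.21 (adjusted p from limma = 0.35), and btg2, an antiproliferative gene, followed at 0.53 ± 0.26 (adjusted p = 0.512). Their array median was lowest on 24 h replicate 1 (-0.41) and highest on 48 h replicate 3 (0.10), which is in the 4-array set with the 96 h arrays. The part of array set in these differences was not tested. Only 4 of the 9 passed the filter on dim probes. Clock genes had a median of 0.03 over 18 members. Among them bhlhe40, a repressor of the clock, had 0.18, 0.73 and 0.21 at 96 h and 0.55, -1.35 and -1.31 at 8 h, so replicate 1 of 8 h stood with the later arrays.

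No apolipoprotein or respiratory chain gene was called. Of the 5 apolipoprotein genes, apoa1b was saturated and cannot show a difference, and apoa1a (-0.00) and apom (-0.26) differed by little. The most negative value was that of apoeb, which encodes apolipoprotein E. It had 0.51, 0.24 and 0.51 at 96 h and 2.14, 1.81 and 1.78 at 8 h (-1.49 ± 0.39, adjusted p from limma = 0.135). Its values at 24 h (1.25, 0.87 and 0.16) lay below those of 8 h and those at 48 h (0.00, 0.51 and 0.46) were at the level of 96 h, on arrays of both sets. Apolipoprotein B, apoba, differed by -0.86 ± 0.30 (adjusted p from limma = 0.293), also without overlap. In the respiratory chain 7 of 17 genes were lower without overlap, against 9.57% of all probes, and 2 higher, against 9.4%, with a median of -0.26. One of the lower genes, atp5pf, had a spot above background on only 8 of the 12 arrays, and the size of its difference is not given. For ndufs1, a subunit of complex I, the difference was -0.72 ± 0.21 (adjusted p from limma = 0.189). Ribosomal protein genes stayed close to 0, with 16 members between -0.21 and 0.26.

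Of the vitellogenin and estrogen genes, vtg3 was saturated on 5 of the 6 arrays of 96 and 8 h, and its difference is not given. For esr1 it was 0.05 ± 0.49, for nots 0.08 ± 0.43, for esr2b 0.20 ± 0.16 and for esr2a -0.54 ± 0.15 (adjusted p from limma 0.172 to 0.992), none of them called. Ovary markers had a median of 0.55, with zp3 at 1.76 ± 0.99 (adjusted p from limma = 0.592) and zp3a.1 at 1.64 ± 1.04 (adjusted p = 0.655), and in both genes 8 h replicate 1 was as high as the 96 h arrays. Of the 11 ovary markers 8 had positive differences, and the lowest difference was -0.62. Without overlap 0 were higher and 2 lower, against 9.4% and 9.57% of all probes.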

How the data were processed

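Liver RNA (Cy5) of 12 control pools and of 12 pools exposed to HgCl2 was hybridised against a common Cy3 reference on spotted oligonucleotide arrays, 4 fish per pool. As deposited, the scanner tables give the intensity of each spot and of its local background in both channels, before normalization, and the percentage of its pixels above background plus 2 SD. The authors also deposited a table of log2 ratios (Cy5 over Cy3), whose normalization could not be settled from its values and which served as an alternative only.

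Ranks used the median Cy5 intensity minus median background. For ratios, background was corrected with normexp (offset 50) and each array normalized by loess, giving no weight to 172 control spots of beta-actin, in limma 3.58.1 (R 4.3.3, with version 1.17.8 of data.table). Means of the 8 groups were fitted over all 24 arrays, so that control and HgCl2 arrays share 1 estimate of the spread, and p-values were adjusted by the Benjamini-Hochberg method over 16340 probes, with calls at an adjusted p below 0.05. These p-values measure the spread between the pools labelled as biological replicates. Gene symbols came from the platform annotation, where 10349 spots have no symbol and 75 have several, from which no gene was named. Figures were drawn with matplotlib 3.10.9 under Python 3.11.15. The model was tested on simulated data.

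The members and lists (27 lists, 295 genes on the array) were chosen with earlier results of these data known. Named are the 20 genes with the best median Cy5 rank, the 15 with the largest SD within times after leaving out dim probes (foreground below 2 times background), genes called with a single symbol, up to 12 a direction, up to 4 members of a list by rank, and genes of vitellogenin, hemoglobin, pancreas and the clock. Other genes named beside them, such as cholesterol synthesis, the genes that share the arrays of zp3, or list members with the largest differences, were picked after their values were seen. Alternatives covered background correction, scaling, the filter, the arrays in the model, a replicate block, array weights and the methods' t-test. The array sets, the block on them, the filter on spots above background and leaving out 48 h replicate 3 were added after seeing the data. The number of arrays limits the precision.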

Additional observations from a re-analysis of the deposited data

Results flagged for a closer look

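In 3 named genes called at 96 h against 8 h, the change in control fish differed from that in HgCl2 fish by the test of the difference itself, in the same limma model. These genes were chosen by their difference in control fish, which enters this test too, so the p-values are no independent evidence. The ratio of the 14-3-3 gene ywhaba was lower at 96 h by 1.67 ± 0.30 on the log2 scale in control fish. In HgCl2 fish it differed by 0.39 ± 0.30, a gap of -2.06 ± 0.43 (adjusted p from limma = 0.0198). For the E-cadherin gene cdh1 the differences were 1.33 ± 0.21 in control fish and -0.06 ± 0.21 in HgCl2 fish, a gap of 1.39 ± 0.29 (adjusted p from limma = 0.0237). The transporter gene abca5 had 1.54 ± 0.27 in control fish and -0.13 ± 0.27 in HgCl2 fish, a gap of 1.67 ± 0.39 (adjusted p from limma = 0.0381), but its Cy5 spot was not above background on any 8 h array of control fish, so only the bound of at least 1.52-fold between 96 and 8 h can be read. With array set as a block on the control arrays the differences between 96 and 8 h were -0.06 for ywhaba, 2.09 for cdh1 and 0.54 for abca5, none of them called (adjusted p from limma 0.985, 0.201 and 0.873). In the value table of the authors that of cdh1 was -0.07. In the reference channel of the control arrays the difference between 96 and 8 h was called for cdh1 (2.86 on the log2 scale, adjusted p from limma = 0.00517). It was 0.73 for ywhaba (adjusted p = 0.0571) and -0.60 for abca5 (adjusted p = 0.116), which did not pass. The HgCl2 arrays were not assigned to array sets, and the part of the reference or of array set in these gaps was not tested. Groups of 3 arrays were not searched for single outlying samples.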

How the results depend on the processing

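The count of probes called at 96 h against 8 h was 35 and depended on nearly every choice. It was 14 with no background correction, 19 with plain subtraction, 148 with median centring, 10 in the value table of the authors, 19 with dim probes left out, 2 on the 12 control arrays alone, 14 on the 6 arrays of both times, 233 with array weights, 3 with array set as a block, 14 among probes above background in both channels and 0 by the methods' t-test (1818 of 16340 at an unadjusted p below 0.05). It stayed at 35 with Aquantile scaling. Median centring shared 34 of the 35 probes, array weights 35, no background correction 11, plain subtraction 7, the 6 arrays alone 8 and the value table of the authors 2. Leaving out 1 array gave 0 (without 96 h replicate 2) to 71 (without 48 h replicate 3), with 5 and 2 without 96 h replicates 1 and 3, and 8, 4 and 38 without 8 h replicates 1, 2 and 3. For cdh1 the direction turned to -0.07 in the value table of the authors. For 96 h against 24 h, 19 probes became 36 with no background correction, 118 with median centring, 9 in the value table of the authors and 10 on the 12 control arrays alone, and 3 to 11 without any 1 of its 6 arrays (3 without 24 h replicate 3). The 8 probes of the F test became 62 with median centring, 2 in the value table of the authors, 5 on the 12 control arrays alone and 1 to 64 without 1 array, with 64, 33 and 24 without 48 h replicate 3, 8 h replicate 3 and 48 h replicate 2, 7 without 8 h replicate 2 and 1 to 3 without any other. No list gene was called, against 2 with median centring, 1 on the 6 arrays alone, 9 with array weights and 0 to 2 without 1 array (2 without 8 h replicate 3 or 48 h replicate 3). Calls in the reference channel (3207) were 2174 to 2401 without 1 array. The replicate numbers did not pair the samples, since deviations of arrays with the same number correlated at -0.292 to 0.191 (18 pairs) and those with different numbers at -0.189 to 0.319 (36 pairs). A replicate block gave 28 calls at 96 h against 8 h, 26 of them among the 35, 10 at 96 h against 24 h and 2 in the F test. Of the 20 top-ranked genes 19 or 20 were shared under every alternative run. Of the 15 most variable genes 11 to 15 were shared, but 3 when the normalized Cy5 signal replaced the ratio. Saturation limits the ranks of the brightest spots, and spots dark in 1 array set limit the comparison of times.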
